A study of Homo sapiens with 6 samples.

Results

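The delta protocadherins and their close relatives are cell surface proteins encoded outside the clustered protocadherin loci. The 9 genes described here, PCDH1, PCDH7, PCDH8, PCDH9, PCDH10, PCDH17, PCDH18, PCDH19 and PCDH20, were taken by gene symbol from the 60546 gene identifiers of the deposited table, and all 9 symbols were found. They were selected on measured values, because their levels in the libraries labelled GOLPH3 and Vector were known when the set was drawn up. Their levels and differences between those labels are therefore given as a description with no test of their own.

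RNA sequencing was carried out on cells labelled HCT-116, an established human colon carcinoma cell line, in a study of GOLPH3, a Golgi phosphoprotein. One group of 3 libraries came from HCT-116-PMSCV-GOLPH3 cells, stably infected with the viral expression vector PMSCV carrying the human GOLPH3 cDNA. The other 3 came from HCT-116-PMSCV-Vector cells, infected with the empty vector, so both groups carried the vector and were labelled wild type in genotype. The labels also give a number after the letter P, which they do not explain, of 8, 12 and 13 for replicates 1 to 3 of GOLPH3 and of 12, 11 and 13 for replicates 1 to 3 of Vector. The methods of the study describe cells from different generations of each line, so p-values measure the spread between these samples and not between independently derived lines.

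Protocadherins form a large branch of the cadherin superfamily, with a chain of calcium-binding extracellular domains, a membrane span and a cytoplasmic tail. The delta protocadherins mediate weak adhesion between cells that carry the same member, and through their tails they recruit actin regulators, phosphatases and other partners. They are best known from the brain, where they guide axon growth and synapse formation, and several of them are known as genes whose promoters are often methylated in carcinomas of the gut. The family is divided by the conserved motifs of the tail into delta-1 members, of which PCDH1, PCDH7 and PCDH9 were followed here, and delta-2 members, of which PCDH8, PCDH10, PCDH17, PCDH18 and PCDH19 were followed. PCDH20 falls outside both subfamilies.

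Values are given as normalized reads, that is, read counts scaled by the authors with 1 factor for each library and not adjusted for the length of a gene. The libraries held 15708846 to 21900764 reads. A gene without a read could have had up to 3 reads at this depth, or between 2.47 and 3.29 normalized reads according to library, and this limit covers counting error only. Differences are on the scale of log2(normalized reads + 1) from limma, GOLPH3 minus Vector, over 26536 genes that reached 1 normalized read in 3 or more libraries, and they understate the change of low genes. The transcript of GOLPH3 itself had a level of 1629.5, 1272 and 1383 in replicates 1 to 3 of GOLPH3 and of 1968, 1892 and 1472 in replicates 1 to 3 of Vector. It was thus not higher in GOLPH3, and both group names only repeat what the samples were labelled. Of 4 listed genes typical of another cell line, IRS4, NEFM and LIN28B were abundant in all 3 Vector libraries and at or near 0 in GOLPH3. PAX2, the other gene of that list, overlapped between the groups. The values are given beside the other markers. Whether the groups differ in the GOLPH3 construct alone was not tested, and a difference between them is stated only as a difference between these libraries.

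The promoters of 4 members are shown because the members differed most clearly in behaviour. PCDH9, PCDH17 and PCDH18 had no read in any library labelled GOLPH3, and PCDH1 was the member with the higher level there. Each sequence runs 5′ to 3′ on the strand of the gene, from 250 bases before to 50 bases after the RefSeq start on GRCh38.p14, and capitals mark the CG dinucleotides, at which DNA can be methylated. PCDH9 lies at chr13:67230287-67230586 on the minus strand, PCDH17 at chr13:57631494-57631793 on the plus strand, PCDH18 at chr4:137532445-137532744 on the minus strand and PCDH1 at chr5:141869578-141869877 on the minus strand, inside the GENCODE 29 span of the gene.
PCDH9: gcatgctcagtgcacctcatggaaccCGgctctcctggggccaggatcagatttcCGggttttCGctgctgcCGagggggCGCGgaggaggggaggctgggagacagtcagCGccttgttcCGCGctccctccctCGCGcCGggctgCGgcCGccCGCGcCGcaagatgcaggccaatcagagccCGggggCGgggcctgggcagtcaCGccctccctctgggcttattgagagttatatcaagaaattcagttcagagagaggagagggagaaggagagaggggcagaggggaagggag
PCDH17: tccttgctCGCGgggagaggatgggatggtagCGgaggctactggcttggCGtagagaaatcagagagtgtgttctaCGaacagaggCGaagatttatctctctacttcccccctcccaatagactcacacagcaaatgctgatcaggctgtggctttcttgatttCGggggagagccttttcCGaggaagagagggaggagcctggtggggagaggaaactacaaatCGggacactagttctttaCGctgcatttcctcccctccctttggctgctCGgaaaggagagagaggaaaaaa
PCDH18: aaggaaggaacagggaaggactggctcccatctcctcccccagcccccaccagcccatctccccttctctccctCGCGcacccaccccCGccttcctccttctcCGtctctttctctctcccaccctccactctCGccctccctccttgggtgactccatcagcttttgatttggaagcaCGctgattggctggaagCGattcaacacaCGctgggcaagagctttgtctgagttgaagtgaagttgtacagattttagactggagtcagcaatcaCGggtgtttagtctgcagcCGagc
PCDH1: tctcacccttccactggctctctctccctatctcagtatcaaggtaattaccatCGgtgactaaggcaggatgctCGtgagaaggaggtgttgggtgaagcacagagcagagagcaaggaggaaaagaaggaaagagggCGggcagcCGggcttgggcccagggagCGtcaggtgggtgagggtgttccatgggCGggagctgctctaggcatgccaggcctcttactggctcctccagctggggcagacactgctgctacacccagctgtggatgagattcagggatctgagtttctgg

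Promoters of 7 of the 9 members were in the RefSeq table used, without PCDH10 and PCDH20. The number of CG dinucleotides in the 300 bases was 20 for PCDH9, 11 for PCDH17 and 10 for PCDH18, against a median of 14 over 35116 promoters. The members present in every library spanned the range from both ends, with 6 in PCDH1, 16 in PCDH7 and 26 in PCDH19. PCDH8, which had no read in any library, had 20. CG content therefore did not separate the members that were silent in a group from the others. The E-box letters CACCTG or CAGGTG, which are each other's reverse complement and are bound by repressors of the SNAIL and ZEB families, occurred in PCDH1 alone of the 7, beside 20.6% of all promoters. The GC box letters GGGCGG, on either strand, were found in 4 members (44.95% of all promoters), the CCAAT box in 6 members (34.6%) and the TATA box letters TATAAA in 1 member (11.5%). All motifs were searched on both strands, and no motif contains another. These matches are a description of the letters in the window, and methylation was not measured.

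The members split into silent and retained genes. In the libraries labelled Vector 7 of the 9 members had over 3 reads in each library, and in those labelled GOLPH3 only PCDH1, PCDH7 and PCDH19 did. PCDH9, PCDH10, PCDH17 and PCDH18 were at 0 or 1 read in every library labelled GOLPH3, PCDH7 and PCDH19 were lower there without being lost, and PCDH1 was higher. PCDH8 and PCDH20 were at or near 0 throughout and were not tested.

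**Figure D1:**
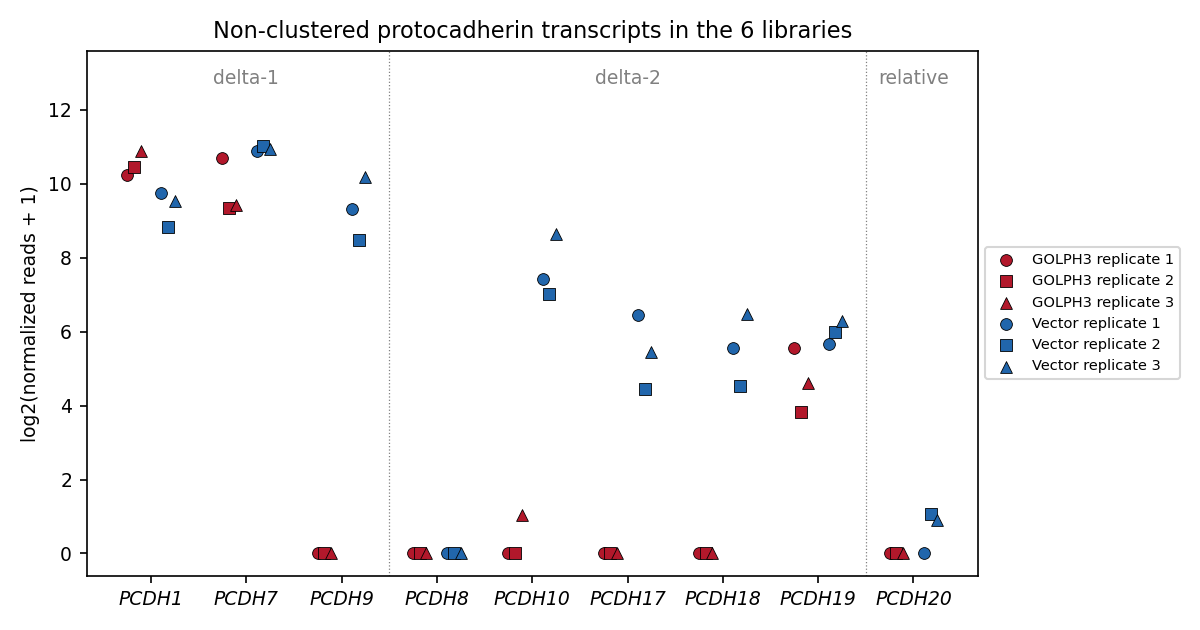
Each point is 1 library, with log2(normalized reads + 1) on the vertical axis and the 9 members on the horizontal axis, GOLPH3 in red to the left and Vector in blue to the right of each gene. PCDH9, PCDH10, PCDH17 and PCDH18 lie at or near 0 in all 3 red points and between 20.8 and 1153 normalized reads in the blue ones.

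Among the delta-1 members, PCDH1 is an adhesion protein of epithelia, known in the airway, and serves some hantaviruses as a receptor. PCDH1 (ENSG00000156453, chromosome 5 from 141853111 to 141879246, minus strand, GENCODE 29 on GRCh38) had 1203, 1408 and 1879.8 normalized reads in replicates 1 to 3 of GOLPH3 and 865, 457 and 739 in replicates 1 to 3 of Vector. The lowest GOLPH3 library was 1.39 times the highest Vector library, so the groups did not overlap. The means were 1497 ± 347 and 687 ± 209 (SD, n = 3 each), a ratio of 2.18. The log2 difference was 1.15 with a 95% confidence interval from 0.44 to 1.86. This interval, like those of PCDH7 and PCDH19, is not adjusted for the selection on this contrast and is no test. PCDH1 was the only one of the 9 members that was higher in GOLPH3. Its lowest library was Vector replicate 2 and its highest GOLPH3 replicate 3.

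PCDH7 binds the phosphatase inhibitor SET and protein phosphatase 1 through its tail, and is known for supporting contacts of metastatic carcinoma cells in the brain. PCDH7 (ENSG00000169851, chromosome 4 from 30720415 to 31146805, plus strand) had 1665, 649.8 and 689 normalized reads in GOLPH3 and 1899, 2072 and 1975 in Vector. The Vector libraries were tightly grouped, with an SD of 4.37% of their mean, whereas the highest GOLPH3 library was 2.56 times the lowest. GOLPH3 replicate 1, numbered P8, stood between the other 2 GOLPH3 libraries and the Vector libraries, and the groups still did not overlap. The means were 1001 ± 575 and 1982 ± 86.5 (SD, n = 3 each), with a log2 difference of -1.13 and a 95% confidence interval from -1.92 to -0.34. Without GOLPH3 replicate 1 the difference was -1.56.

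PCDH9 is a neuronal adhesion protein, and its gene is one of the longest in the human genome. PCDH9 (ENSG00000184226, chromosome 13 from 66302834 to 67230445, minus strand) had no read in the 3 libraries labelled GOLPH3 and 642, 356 and 1153 normalized reads in those labelled Vector, from 624, 325 and 1344 reads. The Vector mean was 717 ± 404 (SD, n = 3), at least 223-fold higher than the 3-read limit of the GOLPH3 libraries. The fold rests on all 3 Vector libraries, which differed among themselves by 3.24 times.

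Among the delta-2 members, PCDH10 recruits the WAVE actin regulators to sites of cell contact, and its promoter is a known site of methylation in colorectal and gastric carcinoma. PCDH10 (ENSG00000138650, chromosome 4 from 133149315 to 133208606, plus strand) had 0, 0 and 1.07 normalized reads in GOLPH3, the last being a single read in replicate 3, and 169.8, 129 and 402 in Vector. The Vector mean was 234 ± 147 (SD, n = 3). Pooled over the libraries of each group and divided by their summed factors, the reads gave a ratio of 759 with a 95% counting interval from 136 to 30008, which rests on a single read in GOLPH3.

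PCDH17 acts at synapses and in axon bundles, also through the WAVE complex, and PCDH18 binds the adaptor protein DAB1. PCDH17 (ENSG00000118946, chromosome 13 from 57631810 to 57729311, plus strand) had no read in GOLPH3 and 86.5, 20.8 and 42.9 normalized reads in Vector, from 84, 19 and 50 reads. Its Vector mean was 50.1 ± 33.4 (SD, n = 3), at least 15.5-fold above the limit in GOLPH3, or 9.89-fold without Vector replicate 1. PCDH18 (ENSG00000189184, chromosome 4 from 137518918 to 137532494, minus strand) had no read in GOLPH3 and 46.3, 21.9 and 87.5 normalized reads in Vector, from 45, 20 and 102 reads. The Vector mean of PCDH18 was 51.9 ± 33.2 (SD, n = 3), at least 16.1-fold above the limit, or 10.6-fold without Vector replicate 3. For both genes every Vector library lay above every GOLPH3 library.

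PCDH19 pairs with N-cadherin in adhesion complexes and is known for an X-linked epilepsy. PCDH19 (ENSG00000165194, chromosome X from 100291644 to 100410273, minus strand) had 46.2, 13.2 and 23.5 normalized reads in GOLPH3 and 49.4, 62.4 and 77.2 in Vector. The lowest Vector library was only 1.07 times the highest GOLPH3 library, and the groups overlapped after quantile normalization. The means were 27.6 ± 16.9 and 63.0 ± 13.9 (SD, n = 3 each), and the log2 difference was -1.31 with a 95% confidence interval from -2.47 to -0.15. As for PCDH7, GOLPH3 replicate 1 was the library nearest to Vector.

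PCDH8, an activity-induced protocadherin that draws N-cadherin off the surface of neurons, had no read in any library. Its gene is ENSG00000136099 (chromosome 13 from 52842889 to 52848641, minus strand). PCDH20 (ENSG00000280165, chromosome 13 from 61409685 to 61415522, minus strand) had a single read in each of Vector replicates 2 and 3 and none elsewhere. Neither could be distinguished from 0 at this depth.

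Of the 9 members 7 entered the fit, and 4 of these, PCDH9, PCDH10, PCDH17 and PCDH18, passed the filter on low values only through the Vector group. The same 4 were the members with an adjusted p under 0.05 in limma with Benjamini-Hochberg adjustment, which is no test, since a gene that enters through 1 group alone had to differ. Over all genes tested 5.07% passed in either direction and 4.12% were lower. Of the members 6 were lower in GOLPH3 without overlap, where 12.8% of genes tested were, and 1 was higher without overlap, where 9.2% were. At most 3 reads in every GOLPH3 library with over 3 in every Vector library described 4 members and 2.59% of genes tested, and the opposite pattern described no member and 0.441% of genes. Since the members were selected on this contrast, nothing is read from these counts or from the confidence intervals of PCDH1, PCDH7 and PCDH19.

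**Figure D2:**
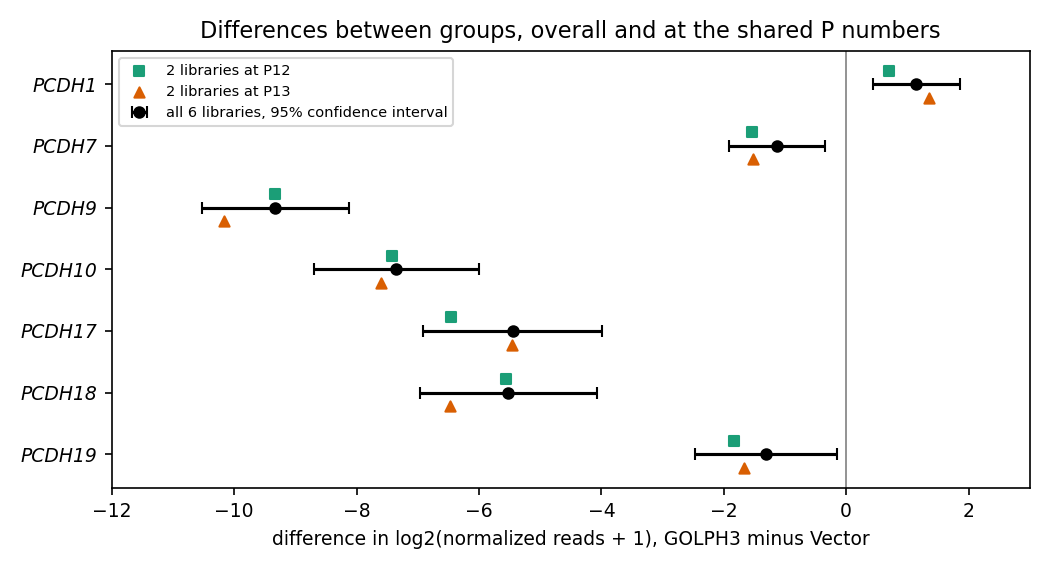
The horizontal axis gives the difference in log2(normalized reads + 1), GOLPH3 minus Vector, for the 7 members tested, with the limma estimate and its 95% confidence interval in black and the difference between the 2 libraries at P12 (green) and at P13 (orange). All 3 points of a gene lie on the same side of 0, which was fixed in advance because its groups did not overlap. They run from 1.35 for PCDH1 at P13 to -10.17 for PCDH9 at P13. The intervals are not adjusted for the selection of the members on this contrast and are no test.

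The numbers P12 and P13 each occur once in both groups, so the difference could be taken within them, with 1 library against 1 and no replicate check. For PCDH1 it was 0.70 at P12 and 1.35 at P13 on the log2 scale. For PCDH7 it was -1.55 and -1.52, and for PCDH19 -1.83 and -1.68. The same direction at both numbers was fixed in advance, since the groups of these members did not overlap. Only the sizes are read from these pairs, and the remaining pair, P8 and P11, is not matched. For the silent members the within-number differences ran from -5.46 for PCDH17 at P13 to -10.17 for PCDH9 at P13, and these are set by the pseudocount of 1 because the GOLPH3 value is at 0 or 1 read.

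The choice of genes did not use the P number, so the libraries at one P number were also compared with all others, with group in the model. PCDH9, PCDH10, PCDH17 and PCDH18 could show a difference here in the Vector libraries alone, so PCDH1, PCDH7 and PCDH19 are the members this comparison bears on. For P12 against the other libraries limma called 0 of 26536 genes (0% of genes tested) with an adjusted p under 0.05 and 1920 at an unadjusted p under 0.05, while edgeR called 0 and DESeq2 200 genes. None of the 7 members was called by any of the 3 tools, and none had an unadjusted p under 0.05 in limma. The log2 differences were 0.24 for PCDH1, -0.41 for PCDH7 and -0.87 for PCDH19, with standard errors of 0.34, 0.37 and 0.51, and the smallest adjusted p over the members was 0.806. For P13 limma again called 0 genes (0% of genes tested), with 3313 at an unadjusted p under 0.05, edgeR called 0 and DESeq2 108. PCDH10 was the only member with an unadjusted p under 0.05 in limma, higher at P13 by 1.24 (standard error 0.53, adjusted p = 0.392), and no member was called by any of the 3 tools. PCDH1, PCDH7 and PCDH19 had log2 differences of 0.38, -0.30 and 0.19 at P13, with standard errors of 0.29, 0.36 and 0.56. DESeq2 gave no adjusted p for 1 member in the P12 and 4 members in the P13 comparison.

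Levels of different members were compared per kilobase of exon, using the summed exon length of all annotated transcripts. In Vector PCDH7 had the highest level, with 155 to 169 normalized reads per kilobase, and PCDH1 followed with 77.4 to 146, without overlap between them. PCDH9 (11.5 to 37.3) and PCDH10 (12.72 to 39.5) came next and overlapped each other. PCDH18 (3.28 to 13.1), PCDH19 (5.06 to 7.92) and PCDH17 (2.5 to 10.4) were the lowest of the members detected, with ranges that overlapped one another, and PCDH18 at its highest passed the lowest values of PCDH9 and PCDH10. In GOLPH3 the order of the leading members was inverted, with PCDH1 at 204 to 318 normalized reads per kilobase, PCDH7 at 53.0 to 136 and PCDH19 at 1.35 to 4.73, none of which overlapped its neighbour.

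The summed level of the 9 members per kilobase overlapped between the groups, with 345, 293 and 377 in GOLPH3 and 361, 283 and 389.5 in Vector. Its make-up differed. PCDH1 provided 59.2% to 84.4% of the sum in GOLPH3 and 27.3% to 40.5% in Vector, and PCDH7 14.9% to 39.5% and 41.4% to 59.7%. The 4 silent members together had 54.8, 30.01 and 95.05 normalized reads per kilobase in Vector replicates 1 to 3. In bulk RNA fewer cells that carry a transcript and less of it per cell cannot be told apart.

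**Figure D3:**
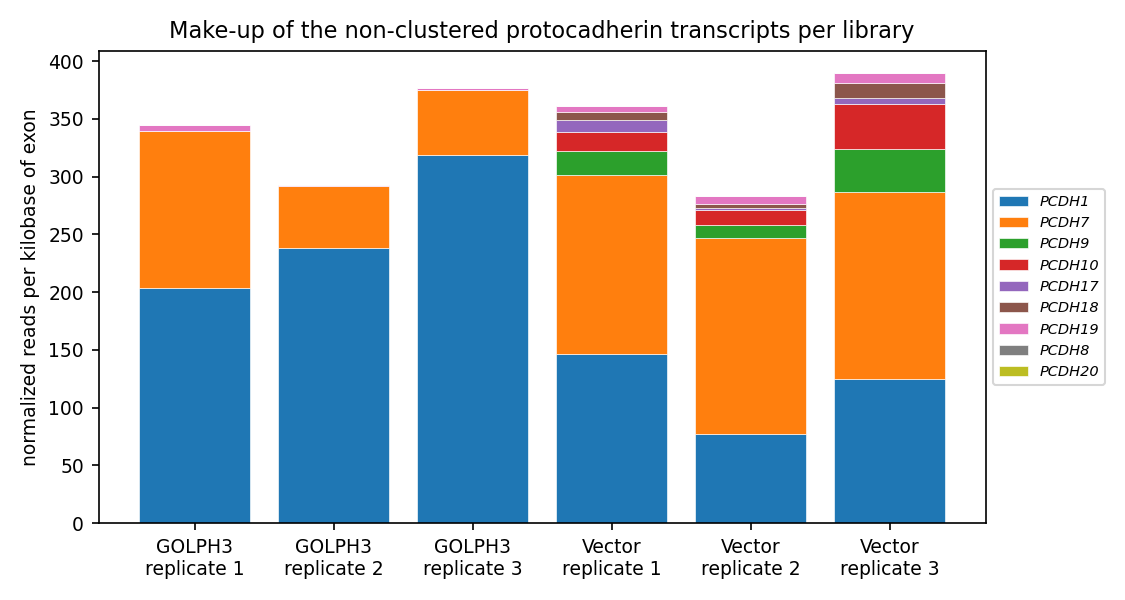
Stacked bars give the normalized reads per kilobase of exon of the 9 members in each of the 6 libraries, 1 colour per gene. PCDH1 takes 59.2% to 84.4% of the bar in the GOLPH3 libraries and 27.3% to 40.5% in the Vector libraries, where PCDH9, PCDH10, PCDH17 and PCDH18 are also visible.

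The Vector libraries differed among themselves most in the members that GOLPH3 lacked. The SD over the 3 Vector libraries was 56.3% of the mean for PCDH9, 62.9% for PCDH10, 66.7% for PCDH17 and 63.9% for PCDH18, against 30.4% for PCDH1, 22.1% for PCDH19 and 4.37% for PCDH7. All 4 silent members were lowest in Vector replicate 2, and PCDH9, PCDH10 and PCDH18 were highest in Vector replicate 3, at 161%, 172% and 169% of their own means. PCDH17 was the exception, highest in Vector replicate 1 at 173% of its mean. The other genes with at most 3 reads in each GOLPH3 library and over 3 in each Vector library numbered 684. Of these, 75.9% were lowest in Vector replicate 2 and 69.6% were highest in Vector replicate 3. The same shares over all genes tested are not given, so this order may not be particular to genes that GOLPH3 lacked.

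**Figure D4:**
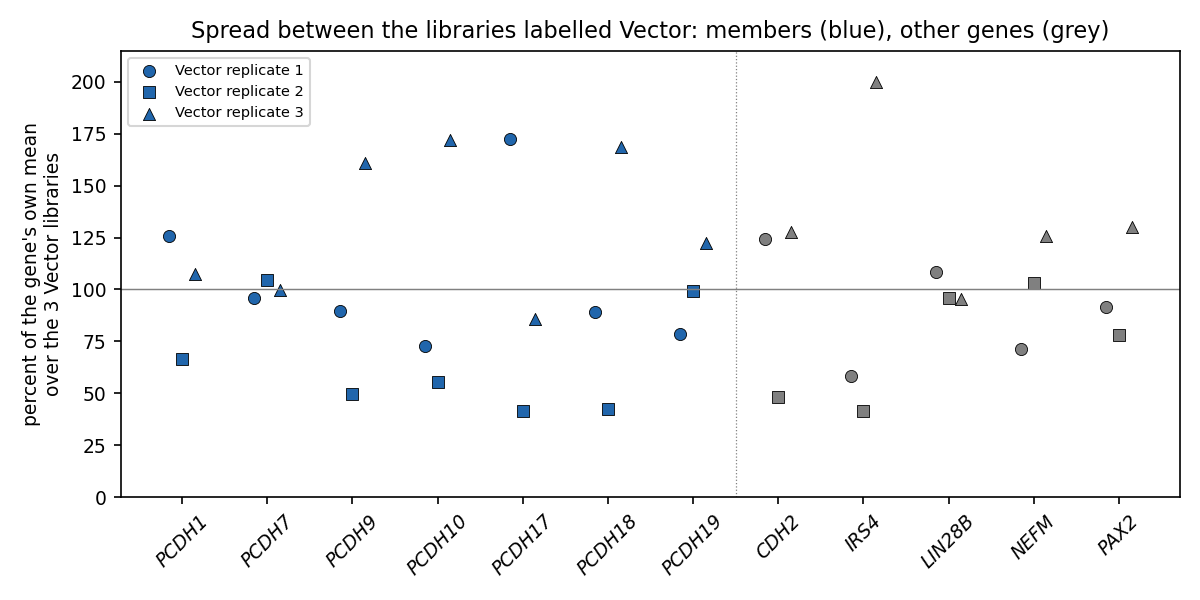
Each point is a Vector library, as a percent of the gene's own mean over the 3 Vector libraries, with the members tested in blue and CDH2, IRS4, LIN28B, NEFM and PAX2 in grey. Vector replicate 2 lies lowest for PCDH9, PCDH10, PCDH17 and PCDH18, at 41.6% to 55.3% of their means, while all 3 points of PCDH7 lie between 95.8% and 105%.

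Marker genes of other cells were read beside these results. HEK293-like genes are typical of the HEK293 embryonic kidney line. Of the 4 listed, 3 were lower in GOLPH3 (75% of the list, limma adjusted p under 0.05), beside 4.12% of all genes tested. IRS4 and NEFM passed the filter on low values only through Vector, so their calls are no test. All 3 were higher in every Vector library than in any GOLPH3 library. LIN28B had 5 reads in GOLPH3 replicate 1, over the 3-read limit that the silent members kept to. NEFM and LIN28B, unlike the silent members, were not lowest in Vector replicate 2. IRS4, an insulin receptor substrate, had no read in GOLPH3 and 1412, 1006 and 4831 normalized reads in Vector, at least 750.3-fold above the limit in GOLPH3, or 375-fold without Vector replicate 3. NEFM, a neurofilament, had no read in GOLPH3 and 346, 501 and 612 in Vector, and LIN28B, an RNA-binding protein of embryonic cells, had 5.37, 1.65 and 0 against 727, 641 and 639. PAX2, a kidney transcription factor, had 134, 112 and 130.2 in GOLPH3 and 104, 88.7 and 148 in Vector, with overlap. The summed level of the 4 genes was 114 to 139.5 in GOLPH3 and 2236 to 6230 in Vector.

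The 7 markers of colon epithelial lines had a median log2 difference of 1.23, with 5 higher in GOLPH3 without overlap, where 9.2% of genes tested were. KRT18 and KRT19, keratins of simple epithelia, passed the test (adjusted p = 0.0363 and 0.0044, limma), and VIL1 and CDH17, of differentiated gut epithelium, stayed under 10 normalized reads in every library. KRT18 missed the threshold without any 1 of the libraries except GOLPH3 replicate 1, with an adjusted p of up to 0.195, and KRT19 passed in each of these settings. Summed levels of this list were 62585 to 134062 in GOLPH3 and 29597 to 40257 in Vector. Of 7 fibroblast markers 5 were tested, 2 with a positive and 3 with a negative log2 difference. Without overlap 1 of the 5 was higher and 2 were lower, beside 9.2% and 12.8% of all genes tested. COL1A1 was the higher one but was not called (limma adjusted p = 0.151). It had 1129, 800 and 1499 normalized reads in GOLPH3 against 601, 466 and 726 in Vector. LUM, lower without overlap, had 2.15, 0 and 0 against 3.09, 8.76 and 3.43 (limma adjusted p = 0.177). PDGFRA was lower in GOLPH3 (limma adjusted p = 0.0227) but passed the filter only through Vector, so its call is no test. Of the settings leaving out a library, this call held only without GOLPH3 replicate 2 (adjusted p = 0.0315). The adjusted p of PDGFRA was 0.0522 and 0.0891 without GOLPH3 replicates 1 and 3, and without any 1 of the Vector libraries it failed the filter. DCN was at 0, and COL1A2 had reads in only 1 library. The summed level, most of it from COL1A1, was 818 to 1508 against 485 to 808. None of 4 endothelial and 5 tested neuronal markers passed, with summed levels of 24.7 to 41.9 against 23.7 to 31.8 and of 624 to 865 against 490.0 to 522, and the leukocyte gene PTPRC had a single read in 1 library. The part of these markers in the differences of the protocadherins was not tested.

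Other non-clustered protocadherin and cadherin-related genes were read beside the members, in a list without classical cadherins and clustered protocadherins. Of 20 such genes 19 were tested, 0 were higher and 2 lower in GOLPH3 with a limma adjusted p under 0.05 (10.5% of those tested). Over all genes tested 5.07% were called and 4.12% were lower. The median log2 difference was 0.30 (0.30 also with CDHR1 at its bound), beside 0.02 over all genes tested. CDHR1, a cadherin of photoreceptor discs, had no read in GOLPH3 and 65.9, 25.2 and 98.7 normalized reads in Vector, at least 19.6-fold lower (adjusted p = 0.0002). FAT3, an atypical cadherin of neuron shape, had 0, 0.82 and 0 against 119, 54.8 and 214 (log2 difference -6.53, standard error 0.65, adjusted p = 0.0001). Both were lowest in Vector replicate 2 and highest in Vector replicate 3, as were PCDH9, PCDH10 and PCDH18 but not PCDH17. Like the silent members, CDHR1 and FAT3 passed the filter only through Vector, so both calls of this list are no test. Without any 1 of the Vector libraries neither gene passed the filter on low values, and 0 of the 16 or 17 genes then tested were called.

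PCDH12, an endothelial protocadherin and the nearest tested relative of the members, had 68.7, 39.6 and 33.1 normalized reads in GOLPH3 and 29.8, 52.6 and 30.04 in Vector. These values overlapped, and the log2 difference was 0.30 with a 95% confidence interval from -0.76 to 1.37 (adjusted p = 0.800). PCDH11X, a delta-1 member outside the set, had no read in any library. FAT4 and CLSTN2, picked here with their values already in view, were lower in GOLPH3 without overlap but did not pass, with log2 differences of -1.31 (adjusted p = 0.196) and -1.74 (adjusted p = 0.115). Over the 19 genes 4 were lower and 1, CLSTN1, was higher without overlap (log2 difference 0.43, adjusted p = 0.463), beside 12.8% and 9.2% of all genes tested. FAT4 is an atypical cadherin of tissue growth and polarity, and CLSTN2 a postsynaptic calsyntenin.

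Most cytoplasmic and membrane partners of the delta protocadherins were not called. The 26 genes cover the WAVE complex, phosphatase 1 subunits, SET, DAB1, NONO, N-cadherin and the proteases that cleave protocadherins. All were tested, 0 were higher and 2 lower (7.69%), beside 5.07% of all genes called and 4.12% lower. The median log2 difference was -0.20. Without overlap 6 were lower and 1 higher, beside 12.8% and 9.2% of all genes tested. CDH2, which encodes N-cadherin, had 2.15, 1.65 and 0 normalized reads in GOLPH3 and 717, 279 and 737 in Vector. The ratio was 457 with a 95% counting interval from 178 to 1681. The log2 difference was -8.03 (standard error 0.60, limma adjusted p = 7.3e-06). Reads in GOLPH3 were 2, 2 and 0, within the 3-read limit in every library, so this adjusted p is not read as a test. WASF3, a WAVE protein that drives actin assembly, had 84.8, 46.2 and 57.6 against 131, 206 and 249 (log2 difference -1.61, standard error 0.41, adjusted p = 0.0434). WASF3 missed the threshold in 9 of 14 alternative settings, among them those without any 1 of the libraries except GOLPH3 replicate 1, with an adjusted p from 5.3e-06 to 0.172 over all of them. DAB1, the partner of PCDH18, was chosen after its values were seen and had a log2 difference of -3.03 (limma adjusted p = 0.0566). It had 1, 2 and 0 reads in GOLPH3, also within the 3-read limit.

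**Figure D5:**
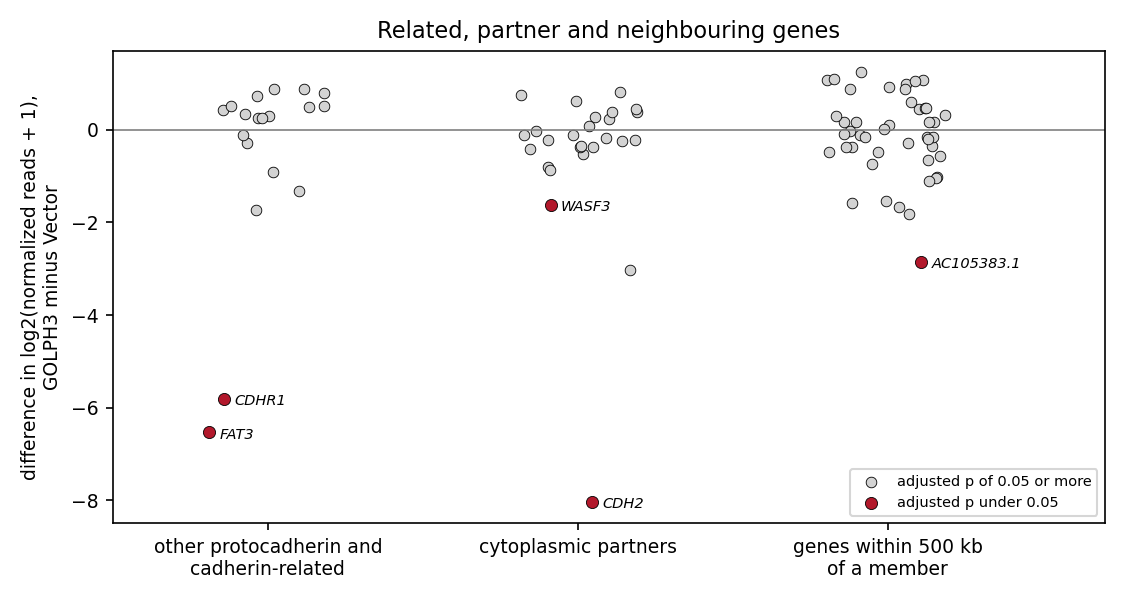
Each point is a gene tested, with the difference in log2(normalized reads + 1), GOLPH3 minus Vector, on the vertical axis, for 19 other protocadherin and cadherin-related genes, 26 partners and 45 genes within 500 kb of a member. Red points passed the limma test (CDHR1, FAT3, CDH2, WASF3 and AC105383.1), and the medians of the lists were 0.30, -0.20 and -0.09.

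The genes around the members on the chromosome were read from the same fit. Within 500 kb of the members GENCODE 29 places 116 other genes of the table, of which 45 were tested. Of these 0 were higher and 1 was lower (2.22%), beside 5.07% of all genes called and 4.12% lower. The median log2 difference was -0.09. Without overlap 11 of the 45 were lower and 5 higher, beside 12.8% and 9.2% of all genes tested. With the P number as a block, where the difference rests on the P12 and P13 pairs alone, 9 were called, 5 higher and 4 lower. The gene that passed was AC105383.1, a long intergenic RNA on the minus strand of chromosome 4 from 133075311 to 133149116, which lies at -0.199 kb from the start of PCDH10, upstream of it on the opposite strand. It had no read in GOLPH3 and 5.15, 4.38 and 10.3 normalized reads in Vector, from 5, 4 and 12 reads. It was at least 2.05-fold lower in GOLPH3 (limma adjusted p = 0.021), but passed the filter only through Vector, so its call is no test. The gene was no longer called with the stricter filter, with the replicate block, in edgeR, where it was not tested, or without any 1 of the libraries except GOLPH3 replicate 1. Its adjusted p ran from 0.0052 to 0.0796 over the settings in which it was tested.

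The surroundings of the silent members were themselves almost without reads. None of the 12 genes near PCDH9, the 13 near PCDH17 and the 11 near PCDH18 passed the filter, nor did the 5 near PCDH20. Of 26 genes around PCDH1, 21 were tested and 0 passed the test. Around PCDH7, PCDH8 and PCDH19 3 of 5, 13 of 22 and 7 of 16 were tested with 0 passing. Low surroundings were not particular to the silent members, since the neighbours of PCDH7 summed to 5.77 to 9.61 normalized reads in GOLPH3 and 7.2 to 13.1 in Vector. Those of PCDH8, itself without a read, summed to 3062 to 5282 and 4589 to 8119. The antisense genes PCDH9-AS1, PCDH9-AS2, PCDH9-AS3 and PCDH9-AS4 had no read, nor did RNU7-87P within PCDH9, AL445288.1 within PCDH17 and AL592490.1, which overlaps PCDH20. AL160254.1 within PCDH9 had a single read in Vector replicate 3. Within PCDH7, on its opposite strand, AC097716.1 had 0.82 to 2.15 normalized reads in GOLPH3 and 3.43 to 8.76 in Vector, and MTCYBP43 3.30 to 8.54 and 1.03 to 4.29. Whether reads were counted by strand is not given in the sources used here, so reads of these genes and of PCDH7 may be mixed.

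The genes whose levels across the 6 libraries were most like those of the 3 most abundant members were read out among 16944 genes with a mean of at least 10 normalized reads, by Pearson's r of log2(normalized reads + 1). For PCDH7 they were ZRANB2-AS2 (r = 0.999), ARNT (0.995) and EPB41 (0.994). For PCDH1 they were HINFP (0.996), ABALON (0.995) and GDPD5 (0.994). For PCDH9 they were TLE4, EPB41L3 and AL035425.2, which like PCDH9 had no read in any GOLPH3 library. TLE4 had 626, 363 and 1165 normalized reads in Vector, beside 642, 356 and 1153 for PCDH9. With 6 libraries in 2 groups such values are common, and 694 genes had an r over 0.95 with PCDH9, 254 with PCDH1 and 171 with PCDH7.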

How the data were processed

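The authors sequenced RNA from 6 samples of HCT-116 cells, 3 with PMSCV-GOLPH3 and 3 with PMSCV-Vector. Per the submitters' processing notes the tools included fastp 0.20.0, HISAT2 2.1.0, Cufflinks, featureCounts 1.6.1 and DESeq2, on GRCh38. The signal deposited by the authors for every gene in every library is a read count divided by 1 factor for that library. Per library 99.9767% to 100% of nonzero values came out whole, within 0.01, as reads at a single step per library, so reads were recovered. The 60590 table entries held 60546 gene identifiers, and 44 repeated entries were summed with their first occurrence. Coordinates and exon lengths came from GENCODE 29, which held 58367 identifiers (96.4%), and promoters from RefSeq (GRCh38.p14).

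Values as log2(value + 1) were fitted with limma 3.58.1 (R 4.3.3), and p-values received Benjamini-Hochberg adjustment. On the recovered reads edgeR 4.0.16 called 1113 genes and DESeq2 1.42.0 called 1991, beside 1346 by limma. In a test on simulated data for the GOLPH3 and Vector comparison, limma recovered 135 of 200 genes changed by 2 on the log2 scale among 26944, with 12 false calls.

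The members and gene lists were chosen with earlier results of these data known. Named genes are all members, PCDH11X and PCDH12, up to 5 genes per list with the smallest p among those called without overlap, neighbours that overlap a member, and the 3 genes most correlated with each of the 3 most abundant members. FAT4, CLSTN1, CLSTN2, DAB1 and the marker genes that were not called were named outside this rule, after their values were seen. Alternatives were other normalizations, filters, pseudocounts, tools and blocks, and each library left out.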

Additional observations from a re-analysis of the deposited data

How the results depend on the processing

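Of 99 log2 differences of the members under the alternatives, 83 stayed within 1 SD of the value reported, 16 moved further and 0 reversed. The SD is the residual SD of the gene in the main fit. Part of the 83 was fixed in advance, since the filters and the replicate block cannot change a limma difference. Leaving out a GOLPH3 library likewise cannot change the difference of a gene at 0 in every GOLPH3 library. The moves were mostly in the silent members, whose fitted differences ran down to -12.65 because they depend on the pseudocount and tool. Without a Vector library PCDH9, PCDH17 and PCDH18 failed the filter and gave no value. Over scalings and left-out libraries chosen after seeing the data, 5 to 7 members were lower in GOLPH3 without overlap, the 5 under quantile normalization.

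Across all genes, 1346 calls became 6082 with the P number as a block, 405 with at least 1 normalized read required in every library and 459 to 1528 when a library was left out (881 without GOLPH3 replicate 3, and 459, 895 and 481 without Vector replicates 1, 2 and 3). For the related cadherins 2 calls became 7, 0 and 0 to 2, and for the partners 2 became 8, 0 and 1 to 2. The partners gave 1 with a pseudocount of 0.1, with quantile normalization and with the replicate block. For the neighbours 1 call became 9 with the P number as a block, 0 with the stricter filter, 3 in DESeq2, 0 in edgeR, 0 with the replicate block and 0 to 2 without a library. In the P number block P8 and P11 each held 1 library, so its difference rested on the P12 and P13 pairs alone. Its calls are therefore not a result over all 6 libraries. The cause of the moves was not tested. With the replicate block 1081 genes were called. The replicate numbers did not pair the samples, since deviations of same-numbered libraries correlated at -0.232, -0.151 and 0.259, and the block also ended the call of PDGFRA (adjusted p = 0.0591), while those of CDHR1, FAT3, KRT18 and KRT19 held. Libraries with the same P number correlated at 0.256 (P12) and 0.259 (P13), and the remaining pair, P8 and P11, at 0.331, and the P number block is the setting with 6082 calls. The labels do not say what the number is. At most 3 reads per library limit what can be said of PCDH8 and PCDH20.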
